A study of Rattus norvegicus with 40 samples.

Results

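The cytosolic ribosomal protein genes are those whose products build the large and small subunits of the ribosomes outside mitochondria. They were taken as the genes whose symbol is Rpl or Rps followed by a digit, together with Rplp0, Rplp1, Rplp2 and Rpsa. Kinase genes named Rps6k and names marked as pseudogenes were left out, and where a gene had several probe sets the brightest on average stood for it. The rule found 73 genes, measured by 261 probe sets, among 14506 genes on the array. Of the 73, 39 belong to the large subunit, 26 to the small subunit and 3 to the stalk of the large subunit. The other 5 are the paralogs Rpl22l1, Rpl36al1, Rpl37l1 and Rps4y2, and Rps19bp1, whose product binds the small subunit protein Rps19 and is not itself part of the ribosome.

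The samples were hippocampus from rats killed at postnatal day 55, 1 array per sample, in 10 groups of 4. Male and female controls ate chow with 0 ppm lead acetate. The exposed groups of each sex had 250 or 750 ppm lead acetate in the chow, either perinatally or postnatally. In the perinatal groups lead chow was given to the dams starting 10 days before they were bred and ending at weaning, when the pups moved to control chow. The postnatal groups had lead from birth to day 45 and control chow afterwards. The labels do not tie animals to litters, so littermates within a group are possible and p-values measure only the spread between these samples.

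Ribosomal proteins are needed in nearly equal amounts, and their genes are transcribed at high levels in all cells, neurons included, where ribosomes are also found in dendrites and supply proteins for synaptic plasticity. Their mRNAs belong to the TOP class, named for a terminal oligopyrimidine tract, a run of C and T bases at the very start of the transcript. The mTOR pathway controls translation of these mRNAs through the binding protein Larp1, so their protein output can change with no change in mRNA, which is what the arrays measured.

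The start sites of the genes that the results turn on are shown here, since the tract is the sequence feature that defines the class. Each line holds 20 bases before and 20 bases from the annotated start on the gene's strand, from RefSeq (GRCr8), with the longest unbroken run of C and T in capitals. That run need not lie at the start. The lines show genes with the smallest p for differences between groups (Rpl3, Rpl10, Rpl22l1, Rpl4, Rps3a and Rpl38) and Rpl22, the paralog of Rpl22l1. They also show genes that differed by the sample numbers described further on (Rps3, Rpl5, Rpl36a, Rpl29 and Rpl41). Rpl29 and Rpl41 were added after their values were seen.
Rpl3: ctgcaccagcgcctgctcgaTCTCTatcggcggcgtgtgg
Rpl10: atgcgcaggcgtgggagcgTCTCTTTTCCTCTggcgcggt
Rpl22l1: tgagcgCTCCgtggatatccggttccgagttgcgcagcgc
Rpl22: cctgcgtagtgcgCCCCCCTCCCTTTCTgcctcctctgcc
Rpl4: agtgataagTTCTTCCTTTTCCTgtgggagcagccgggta
Rps3a: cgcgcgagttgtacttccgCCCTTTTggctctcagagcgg
Rpl38: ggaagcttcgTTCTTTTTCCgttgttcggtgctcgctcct
Rps3: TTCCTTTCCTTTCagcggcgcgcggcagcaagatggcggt
Rpl5: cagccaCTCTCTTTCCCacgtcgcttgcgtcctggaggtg
Rpl36a: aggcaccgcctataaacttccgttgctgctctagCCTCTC
Rpl29: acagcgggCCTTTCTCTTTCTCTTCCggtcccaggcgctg
Rpl41: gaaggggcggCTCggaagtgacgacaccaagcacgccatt

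The Rpl3 window lies at chr7:113507971-113508010 on the minus strand, that of Rpl22l1 at chr2:113683176-113683215 on the plus strand and that of Rpl41 at chr7:1563478-1563517 on the minus strand. RefSeq entries were found for 62 of the 73 genes, and the other 11 were not used here. A run of 8 or more C or T bases on the gene's strand lay in the window of 46 of the 62 genes (74.2%), against 15.1% of 19005 protein-coding genes. On the other strand the shares were 1 of 62 and 16.1%. The run had a median length of 10 bases in the ribosomal protein genes and 5 in all genes, and the longest, of 21 bases, was at Rps23, a protein of the small subunit's decoding centre. The letters CTTT, which can fall inside such a run, lay on the gene's strand in the window of 66.1% of the genes and 14.7% of all. TTCCGG, the core that ETS factors bind, was found on either strand of the whole 300 base promoter in 32 of the 62 (51.6%) and in 18.6% of all promoters. A TATAAA box lay in the 50 bases before the start, on the gene's strand, in 4 of the 62 (6.45%) and in 2.82% of all. Among the genes printed, Rpl10, Rpl22, Rpl4, Rps3, Rpl5, Rpl29 and Rpl38 have runs of 10 or more bases. Rps3a and Rpl36a have runs of 7 and 6, and Rpl3, Rpl22l1 and Rpl41 of 5, 4 and 3. The runs of Rps3, Rpl5, Rpl38, Rpl22l1 and Rpl41 end before the annotated start. That of Rpl36a begins at base 15 from the start. These runs are therefore not at the very start of the annotated transcript.

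Before the comparisons, 6 arrays needed care. By Eif2s3, an X-linked initiation factor gene, 3 control arrays went against their sex labels (male control replicate 4 and female control replicates 1 and 3), so comparisons are with arrays labelled male or female control. Another 3 arrays (male 250 ppm perinatal replicates 1 and 3 and male 750 ppm perinatal replicate 1) had a flattened signal, with bright probe sets dimmer and dim ones brighter than elsewhere. The neuronal markers Snap25 and Camk2a read 12.92 and 12.93 log2 on average, and Prox1 and Wfs1, markers of dentate granule and CA1 cells, read 9.82 and 11.50. All array medians lay between 6.96 and 7.06. The number of arrays limited the precision. In whole tissue, fewer cells of a type and less RNA per cell cannot be told apart.

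The ribosomal protein probe sets were bright and steady. Their mean log2 signal had a median of 10.80 over the 73 genes, against 7.02 over all 29214 probe sets, and 69 of the 73 lay above the latter and 48 in the top 10%. The signals ran from 5.23 for Rps27 to 13.09 for Rps29, but probe sets differ in affinity, so these are not abundances. The SD between the 4 arrays of a group, pooled over groups, had a median of 0.090 log2 in these genes and 0.129 over all probe sets. It was smallest for Rpl28 and Rpl27 (both 0.037), Rps16 and Rps2, and largest for Rpl36a (0.446), Rpl41 (0.317), Rpl13 (0.216) and Rpl22l1 (0.197). The 10 group means of a gene spanned a median of 0.144 log2, from 0.043 for Rps29 to 0.596 for Rpl22l1. Ribosomal protein genes have many near-identical processed copies. Only 18 of the 73 had a single probe set, 12 had 7 or more and Rpl21 had 21, so the split of signal between copies is uncertain.

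No ribosomal protein gene rose or fell with lead exposure at an adjusted p under 0.05 in any of the 8 comparisons with controls (limma, adjusted over all probe sets). The median difference over the 73 genes lay between -0.029 and 0.068 log2. Its 2 largest values were those of males exposed postnatally and females exposed perinatally to 750 ppm, and its lowest that of males exposed perinatally to 750 ppm. Groups of the same sex were compared with the same 4 controls, so these comparisons share samples. Whether the values of 2 groups overlapped is told below as a description and not as a test. The share of all probe sets without overlap is not given here.

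Males exposed perinatally to 750 ppm held the lowest group mean for more ribosomal protein genes than any other group. Of the 73 genes, 29 had their lowest group mean here (39.7%, against 13.0% of all probe sets) and 5 their highest (21.6% of all probe sets). Against male controls 26 of 73 were higher, with a median of -0.029, while 57.7% of all probe sets were higher, with a median of 0.018. None was called, against 0.0582% of all probe sets, and at an unadjusted p under 0.05 there were 2 higher and 6 lower, against 7.77% of all probe sets. After cyclic loess, a further normalization between arrays, 24 of 73 were higher (median -0.030), against 50.2% of all probe sets.

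Rpl38, a large subunit protein needed for translation of Hox mRNAs in the embryo, had values of 10.67, 10.72, 10.58 and 10.60 in these males and 10.88, 10.76, 10.91 and 10.79 in male controls. The groups did not overlap, and the difference was -0.19 (SE 0.05, adjusted p = 0.262). Rpl13a, also of the large subunit and a part of the interferon-induced GAIT complex, did not overlap either (11.12 ± 0.05 against 11.25 ± 0.05, SD, n = 4, adjusted p = 0.424). Rps21 of the small subunit read 9.42 ± 0.12 against 9.64 ± 0.17 (SD, n = 4) with overlapping values (adjusted p = 0.273). Rpl22l1 differed by -0.38, and Rps19 (-0.18), the small subunit protein most often mutated in Diamond-Blackfan anaemia, and Rps13 (-0.15) were also among the lower. The 2 higher were Rps4y2 (0.24) and the stalk protein Rplp2 (0.16). Oligodendrocyte markers, 6 of 7 measured, had a mean log2 level of 11.70 to 11.76 in these males and 11.53 to 11.62 in male controls, and endothelial markers, 5 of 5, 7.98 to 8.18 and 8.18 to 8.25. Their part in the result was not tested. The median ran from -0.032 to -0.013 on leaving out single arrays, and was -0.013 without male control replicate 3 and -0.016 without exposed replicate 4.

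Males exposed postnatally to 750 ppm lay at the other end. Here 60 of 73 genes were above male controls, with a median of 0.068, against 45.5% of all probe sets and a median of -0.012. The small subunit genes had a median of 0.07 (24 of 26 higher) and the large subunit genes 0.04 (28 of 39 higher), and all 3 stalk genes were higher. None was called, against 0.0445% of all probe sets, and 13 were higher and 0 lower at an unadjusted p under 0.05, against 9.51%. After cyclic loess 56 of 73 were higher (median 0.048), against 49.8% of all probe sets. The genes at an unadjusted p under 0.05 were then 7, against 2438 of all 29214 probe sets.

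Rpl3, a large subunit protein next to the peptidyl transferase centre, had the smallest p. Its values were 11.11, 11.11, 11.21 and 11.06 in the exposed males and 10.95, 10.79, 11.05 and 10.92 in male controls. They did not overlap, with a difference of 0.20 (SE 0.05, adjusted p = 0.252). Rpl37l1 followed (0.15, SE 0.04, adjusted p = 0.271), then Rpl9, of the base of the stalk (0.25, SE 0.08, adjusted p = 0.306), both with overlapping values. Red blood cell markers (Hbb-b1, Hbb and Alas2, 3 of 6 measured) had a mean log2 level of 9.77 to 10.55 in the exposed males and 9.39 to 9.86 in male controls. Oligodendrocyte markers were at 11.77 to 11.83 and 11.53 to 11.62, with 6 of 6 higher and 5 at an unadjusted p under 0.05. The oligodendrocyte levels of the groups did not overlap. In the other exposed male groups they also lay above male controls without overlap. They were 11.79 to 11.97 at 250 ppm perinatally, 11.70 to 11.76 at 750 ppm perinatally and 11.64 to 11.97 at 250 ppm postnatally. The part of these lists in the result was not tested.

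In males exposed perinatally to 250 ppm, 35 of 73 genes were above male controls (median -0.0061). None was called, against 0.0890% of all probe sets, and 3 were higher and 0 lower at an unadjusted p under 0.05, against 7.11%. Rpl28 had the smallest p: 12.46 ± 0.005 against 12.40 ± 0.025 (SD, n = 4), with no overlap and a difference of 0.07 (adjusted p = 0.614). In males exposed postnatally to 250 ppm, 46 were higher (median 0.018). None was called, against 0.0342%, and 5 were higher and 1 lower at an unadjusted p under 0.05, against 6.03%. The lower one was Rpl38 (-0.16, SE 0.05, adjusted p = 0.616), at 10.73, 10.72, 10.65 and 10.60, below each of the same male controls. The median of the males exposed perinatally to 250 ppm was 0.020 without the flattened arrays, and ran from -0.029 to 0.0055 on leaving out single arrays.

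In females exposed perinatally to 750 ppm, 55 of 73 genes were above female controls, with a median of 0.043, against 50.3% of all probe sets and a median of 0.001. None was called, against 0.157% of all probe sets, and 5 were higher and 0 lower at an unadjusted p under 0.05, against 5.81%. Rps23 read 11.02, 10.96, 10.97 and 10.88 against 10.82, 10.66, 10.88 and 10.72 in female controls, overlapping at the edge, with a difference of 0.19 (SE 0.06, adjusted p = 0.427). With the place of the sample number as a block (described further on) its adjusted p was 0.0456. Rps12, a small subunit protein, was at 8.89 ± 0.08 against 8.71 ± 0.07 (SD, n = 4) without overlap (adjusted p = 0.481). Rps26, which contacts mRNA at the exit channel, differed by 0.10 (adjusted p = 0.636). Oligodendrocyte markers had a mean log2 level of 11.61 to 11.95 against 11.58 to 11.70 in female controls (6 of 6 higher, 4 at an unadjusted p under 0.05). Endothelial markers were at 8.21 to 8.34 against 8.02 to 8.19, without overlap (4 of 5 higher, 2 at that p). Their part in the result was not tested. Without the mismatched controls 11 ribosomal protein genes had an unadjusted p under 0.05, against 4.66% of all probe sets, and the median was 0.044.

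The other female groups had lower medians. At 250 ppm perinatally 43 of 73 genes were higher (median 0.016), and none was called, against 0.0171% of all probe sets. At an unadjusted p under 0.05 there were 3 higher and 1 lower, against 5.60%. Rpl4, which lines the exit tunnel, read 11.71, 11.66, 11.70 and 11.68 against 11.55, 11.57, 11.61 and 11.51, without overlap (0.13, SE 0.05, adjusted p = 0.690). The median was -0.0029 without exposed replicate 4 and 0.031 without the mismatched controls. At 250 ppm postnatally 57 were higher (median 0.037), and none was called, against 0.0171%. Both genes with an unadjusted p under 0.05 (3.64% of all probe sets) were higher, Rps12 (0.18, adjusted p = 0.961) and Rpl35a (0.13). At 750 ppm postnatally 42 were higher (median 0.0075), none was called (against 0.0137%) and none had an unadjusted p under 0.05 (3.58% of all probe sets). Its smallest p was that of Rpl38 (-0.11, SE 0.05). Without the mismatched controls the medians of the postnatal groups were 0.043 at 250 ppm and 0.026 at 750 ppm, each with 6 genes at an unadjusted p under 0.05, against 3.64% and 3.72% of all probe sets. The median at 750 ppm was -0.0018 without exposed replicate 1.

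**Figure D1:**
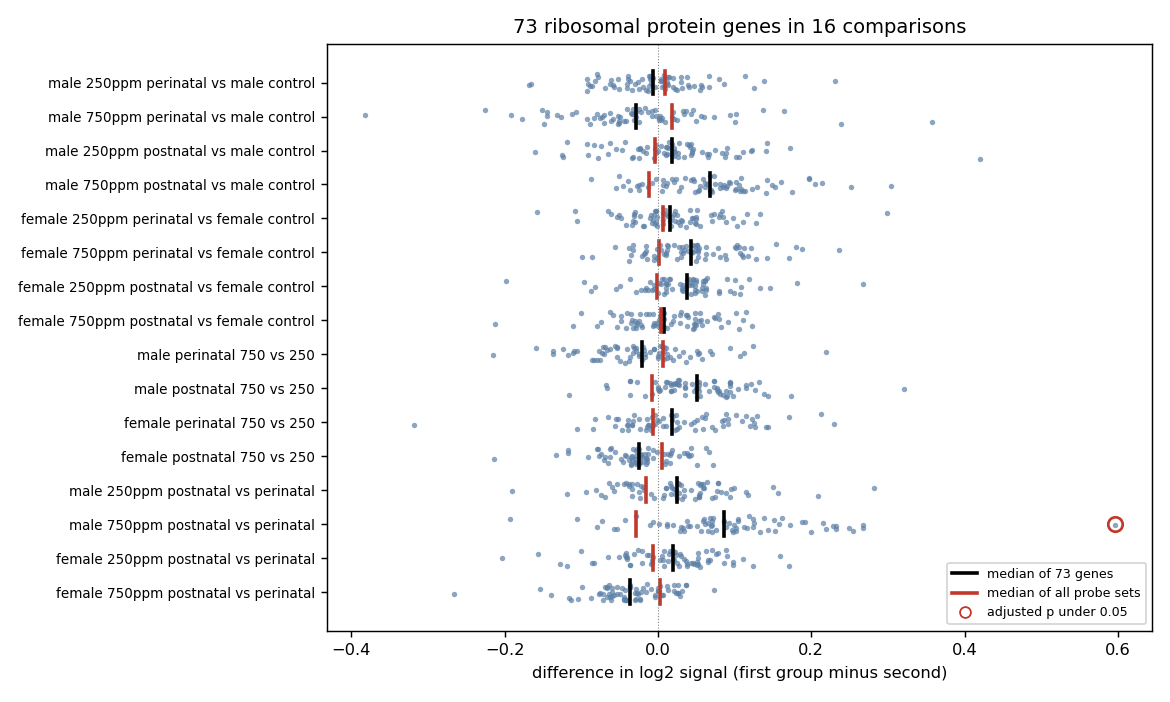
Differences in log2 signal (horizontal axis) of the 73 ribosomal protein genes, 1 point per gene, in 8 comparisons with controls, 4 of dose and 4 of exposure window (rows, first group minus second). Black bars are medians of the 73 genes, red bars medians of all 29214 probe sets, and the red ring marks Rpl22l1, the 1 gene called; the black median lies farthest from 0, at 0.086, for males at 750 ppm, postnatal against perinatal.

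By dose, 750 against 250 ppm, no gene was called. In perinatally exposed males 28 of 73 were higher at 750 ppm (median -0.021), none called against 0.0411% of all probe sets, and 1 was higher and 2 lower at an unadjusted p under 0.05, against 5.15%. In postnatally exposed males 62 were higher (median 0.051), none called against 0.0103%, with 3 higher and 0 lower at that p, against 3.82%. In females 42 were higher perinatally (median 0.019, none called against 0.0856%, 4 higher and 0 lower at that p, against 8.02%). In postnatally exposed females 19 were higher (median -0.025, none called, as of all probe sets, 0%, and 0 higher and 1 lower at that p, against 3.66%). Without the flattened arrays the perinatal male median was -0.045, with 21 of 73 higher, and single arrays left out moved it between -0.034 and -0.0060. The female perinatal median was -0.0019 without 750 ppm replicate 1, and the female postnatal one was -0.0044 without 250 ppm replicate 3.

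The comparison of exposure windows set postnatal against perinatal exposure at the same dose, and at 750 ppm in males it gave the median farthest from 0 of the 16 comparisons. The windows differ both in when lead began and in when it ended. In males at 750 ppm the 2 groups also lie in different ranges of sample numbers (described further on), so window and range cannot be told apart. Among males at 750 ppm, 63 of the 73 genes were higher after postnatal than after perinatal exposure (86.3%, against 41.4% of all probe sets). The median was 0.086 over the 73 and -0.029 over all. Of the small subunit genes 25 of 26 were higher, of the large subunit genes 32 of 39, of the stalk genes 2 of 3 and of the remaining 5 genes 4. Only Rpl22l1 passed (1 of 73 genes, 1.37%, against 0.175% of all probe sets), and 24 were higher and 0 lower at an unadjusted p under 0.05, against 19.4% of all probe sets in either direction. The median was 0.093 without the flattened arrays. After cyclic loess it was 0.073, with 61 of 73 genes higher, against 50.2% of all probe sets. The genes at an unadjusted p under 0.05 were then 19, against 4468 of all 29214 probe sets. The part of signal brightness in the difference was not tested.

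Rpl22l1 encodes a paralog that can replace Rpl22 in the large subunit, and both bind mRNA. Its values were 6.93, 6.74, 6.88 and 6.90 in the postnatal group and 6.03, 6.62, 6.14 and 6.27 in the perinatal group, while male controls read 6.53, 6.68, 6.62 and 6.76. The exposed groups did not overlap, and the perinatal group held 3 values below every control. The difference was 0.60 (SE 0.13, adjusted p = 0.0499), at the edge of the threshold. It was lost without the flattened arrays (0.52, adjusted p = 0.175), in a fit of the 2 groups alone (adjusted p = 0.194), and on leaving out any 1 array except perinatal replicate 2. The adjusted p ran from 0.0141 without that array to 0.298 without perinatal replicate 1, which is flattened. Male 250 ppm perinatal replicates 1 and 3, the other flattened arrays, also read low, 6.23 and 6.18 against 6.72 and 6.78. In females Rpl22l1 did not separate the windows (6.77 ± 0.10 postnatal against 6.86 ± 0.17 perinatal at 750 ppm, SD, n = 4). Rpl22 itself read 8.94 to 9.04 in postnatal and 8.68 to 8.90 in perinatal males, without overlap (0.17, adjusted p = 0.156).

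The next by p were Rps3a, a small subunit protein near the mRNA exit, and Rpl3. Rps3a read 10.50, 10.48, 10.60 and 10.48 after postnatal and 10.28, 10.37, 10.26 and 10.14 after perinatal exposure, without overlap (0.25, SE 0.06, adjusted p = 0.0555). Rpl3 differed by 0.20 (SE 0.05, adjusted p = 0.0949). Rpl10, which joins the large subunit late in its maturation, differed by 0.22 (SE 0.06, adjusted p = 0.113). All 3 were without overlap. With the place of the sample number as a block 3 genes passed (Rpl22l1, Rps3a and Rpl13a), against 0.291% of all probe sets. The 3 red blood cell markers had a mean log2 level of 9.77 to 10.55 in the postnatal and 9.26 to 9.66 in the perinatal group, with 1 called. Choroid plexus markers, 6 of 6 measured, were at 7.06 to 10.57 and 6.69 to 9.41, and microglia markers, also 6 of 6 and 1 called, at 8.60 to 8.66 and 8.43 to 8.57. Oligodendrocyte markers were at 11.77 to 11.83 and 11.70 to 11.76, without overlap (6 of 6 higher), and endothelial markers at 8.13 to 8.33 and 7.98 to 8.18 (5 of 5 higher). Neuronal markers, 9 of 9 measured, were at 12.02 to 12.10 and 12.02 to 12.11. The part of these in the result was not tested.

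In males at 250 ppm 48 genes were higher after postnatal exposure (median 0.025), none called against 0.00342% of all probe sets and 2 higher and 1 lower at an unadjusted p under 0.05, against 6.36%. That median was -0.0034 without the flattened arrays. In females 47 were higher at 250 ppm (median 0.020, none called against 0.0103%, 3 higher and 1 lower at that p, against 5.98%). At 750 ppm 20 were higher (median -0.036, none called against 0.0548%, 0 higher and 4 lower, against 5.07%). The medians at 750 ppm had opposite signs in the 2 sexes, and that difference between the sexes was not tested.

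Tests of the female minus male exposure effect called no ribosomal protein gene. At 750 ppm perinatally the median difference of effects was 0.068 with 10 genes higher and 0 lower at an unadjusted p under 0.05, against 7.41%, and none called against 0.0205% of all probe sets. At 750 ppm postnatally it was -0.051 with 0 higher and 4 lower, against 4.25%, none called, as of all probe sets (0%). At 250 ppm the medians were 0.023 perinatally and 0.025 postnatally, again with 0 members and 0 probe sets called, and with 4 and 0 genes at an unadjusted p under 0.05, against 3.35% and 2.30%. Without the flattened arrays the perinatal value at 250 ppm was -0.0071 (35 of 73 higher, against 49). Without the mismatched controls the medians at 250 ppm were 0.051 and 0.042, with 7 and 6 genes at an unadjusted p under 0.05, against 4.18% and 2.94% of all probe sets. At 750 ppm they were 0.098 and -0.032, with 17 and 6 genes, against 5.43% and 4.39%.

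**Figure D2:**
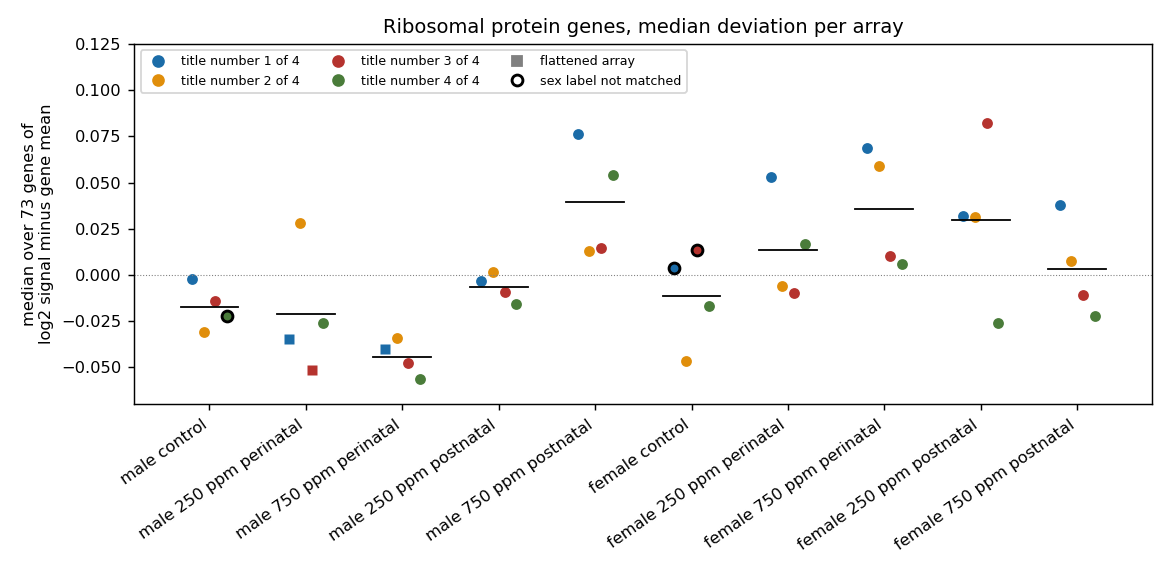
Median over the 73 genes of log2 signal minus the gene's mean over all arrays (vertical axis), 1 point per array, by group (horizontal axis), with black bars for group means, colours for the place of the sample number, squares for the 3 flattened arrays and black rims for the 3 controls that went against their sex labels. Male 750 ppm perinatal arrays lie between -0.057 and -0.034, male 750 ppm postnatal arrays between 0.013 and 0.076.

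Array by array, the 4 males exposed perinatally to 750 ppm lay at -0.057 to -0.034 log2 from the genes' means over all arrays, and the 4 exposed postnatally at 0.013 to 0.076. Females exposed perinatally to 750 ppm lay at 0.0061 to 0.069. Male controls lay at -0.031 to -0.0021 and female controls at -0.047 to 0.013. The 3 flattened arrays were at -0.051 to -0.035. Of these, only male 750 ppm perinatal replicate 1, at -0.040, belongs to that group. Its replicates 2, 3 and 4, not counted as flattened, were at -0.034, -0.047 and -0.057. Flattening was a matter of degree, read from the slope of an array's signal on the mean of all arrays, minus 1. That value was -0.032 in replicate 1 and 0.0023, -0.0033 and -0.0083 in replicates 2, 3 and 4. In the males exposed postnatally to 750 ppm it was 0.0034 to 0.012. The part of signal flattening in the low values of this group was not tested. The titles number the samples in 3 ranges, 1970 to 1981 (both controls and the females exposed perinatally to 750 ppm), 2821 to 2876 (6 groups) and 3444 to 3447 (males exposed perinatally to 750 ppm). For 7 of the 8 exposed groups range and exposure cannot be told apart. The same holds for the dose and window comparisons that include males or females exposed perinatally to 750 ppm.

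Over all 10 groups, 1 of the 73 genes varied beyond the spread within groups, Rpl3 (F test, adjusted p = 0.0288), against 0.654% of all probe sets. At an unadjusted p under 0.05 there were 18, against 12.7%. Rpl3 read 10.91, 10.94, 10.95 and 10.90 in males exposed perinatally to 750 ppm, and its means were 10.93 in male controls, 10.95 in males at 250 ppm perinatally and 11.05 to 11.14 in the other 7 groups. The 3 low groups overlapped one another, and the control and 250 ppm values reached into the range of the other groups. The call was lost without the flattened arrays (adjusted p = 0.0997), without the mismatched controls (0.0515), after further quantile normalization (0.0647), after cyclic loess (0.0619) and without the variance trend (0.0652). The following genes were Rpl10 (adjusted p = 0.0931), Rpl22l1 (0.0948), Rpl4 (0.143), Rps3a (0.155) and Rpl38 (0.189). Rpl10 was highest in female controls (11.55 ± 0.14) and lowest in males exposed perinatally to 750 ppm (11.28 ± 0.06, SD, n = 4).

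Several genes known for roles beyond the ribosome or for paralogs were fixed by name, and 23 of the 32 were measured here. Rps19 had its lowest group mean in males exposed perinatally to 750 ppm (9.10) and its highest in males exposed postnatally to 750 ppm (9.33), and the same pair of groups held the extremes of Rplp1 (11.03 and 11.18), a stalk protein that recruits elongation factors. Rps14 (9.35 to 9.56 over the 10 group means), Rps20 (11.75 to 11.89) and Rpsa, also known as the laminin receptor (9.43 to 9.62), were highest in males exposed postnatally to 750 ppm too. Of all 73 genes, 21 had their highest group mean there (28.8%, against 7.24% of all probe sets). Other fixed genes were highest elsewhere, among them Rplp2 (males, 750 ppm perinatally), Rpl5 (males, 250 ppm perinatally) and Rps6 (females, 250 ppm postnatally). None of the genes named here passed the F test.

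In Rps6, Rpl5 and Rps3 the group means spanned less than the within-group SD, with ranges of 0.073, 0.102 and 0.125 log2 and within-group SDs of 0.095, 0.160 and 0.140. These SDs include differences by place of the sample number (described further on). The unadjusted p of the F test over groups was 0.943, 0.992 and 0.931. With place as a block it was 0.562, 0.853 and 0.068. Group means of Rps4x, the X-linked small subunit gene, spanned 12.49 to 12.61, and those of Rps4y2 6.86 to 7.16. Rps4y2 read 7.23, 7.14, 7.12 and 7.17 in females exposed perinatally to 750 ppm and 6.73, 6.88, 7.01 and 7.09 in female controls. These groups did not overlap, and the difference was 0.24 (adjusted p = 0.798). Rpl39, at the end of the exit tunnel, ranged from 11.36 in males at 250 ppm perinatally to 11.59 in female controls.

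**Figure D3:**
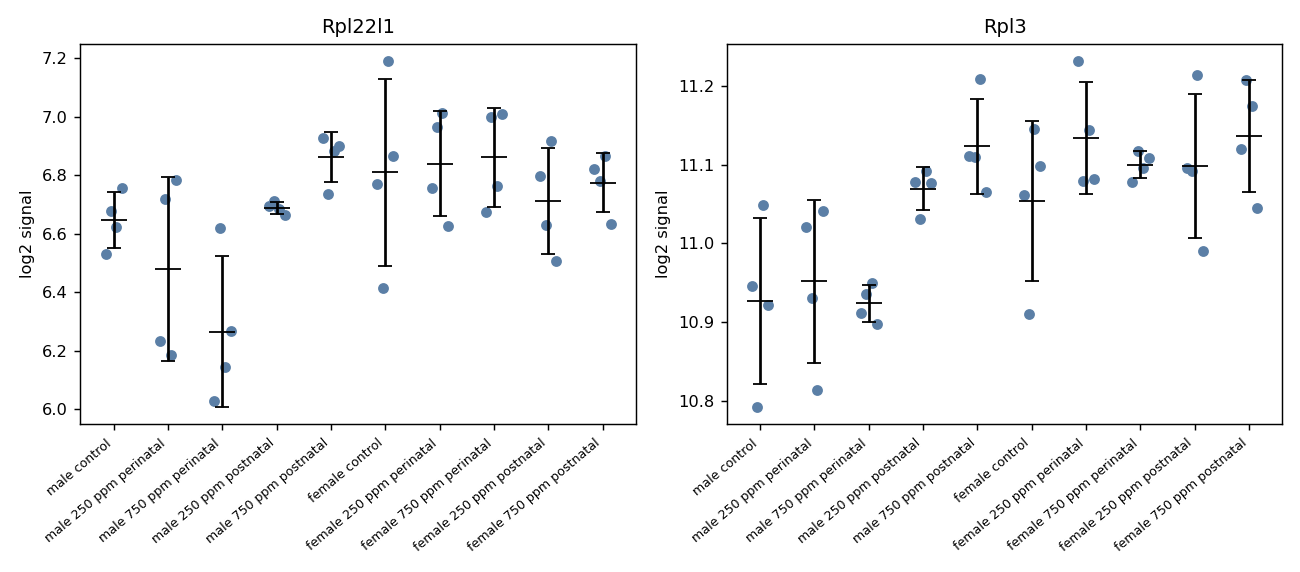
Log2 signal (vertical axes) of Rpl22l1 and Rpl3 in the 4 arrays of each of 10 groups (horizontal axes), with mean and SD in black. Rpl22l1 reaches down to 6.03 in the males exposed perinatally to 750 ppm, and the 4 Rpl3 values of that group lie between 10.90 and 10.95.

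In part of the genes the spread within groups followed the sample numbers in the titles. In each group the numbers form a run of 4, and a number's rank in its run is called place 1 to 4 here. The labels do not say what the numbers mark. The pattern was seen first in the values of Rpl41 and Rpl36a, so for these it is a description with no test. Rpl41, a peptide of the large subunit among the shortest known proteins, had medians of 11.71, 12.16, 12.15 and 11.52 at places 1 to 4 (10 arrays each). In 9 of the 10 groups both inner places were above both outer ones. Rpl36a had medians of 12.12, 11.19, 11.31 and 11.48, with place 1 highest in 9 of 10 groups.

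Of all 73 genes, 33 differed by place at an adjusted p under 0.05 (45.2%; F test with group means in the model), against 11.4% of all probe sets. Leaving out Rpl41 and Rpl36a, it was 31 of 71 (43.7%). The other counts by place keep both genes. The test was chosen after the pattern was seen in these same arrays, and its p-values do not allow for that choice. At an unadjusted p under 0.05 there were 46, against 24.3%. Bright probe sets were called more often: with the dimmest 40% left out the shares were 38 of 72 genes (52.8%) and 21.8% of probe sets. This filter does not match the brightness of the genes, 48 of which lie in the top 10% of all probe sets. The share among equally bright probe sets was not computed. For 51 of the 73 genes the p for place was below the p for group. The 33 held 11 small subunit genes, 19 large subunit genes, the stalk genes Rplp0 and Rplp2, and Rpl36al1. Rpl13 and Rpl22l1, whose SD within groups was among the largest, were not called by place (adjusted p = 0.780 and 0.776).

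The genes differed in which place was highest. Rpl32 of the large subunit was highest at place 4 in 10 of 10 groups, with medians of 12.41, 12.33, 12.29 and 12.55 (adjusted p = 2.3e-09). Rps29, a zinc-binding small subunit protein, was highest there in 9 (adjusted p = 1.7e-06). Rps3, which lines the mRNA entry channel, was lowest at place 4 in 9 of 10 groups, with medians of 10.43, 10.45, 10.43 and 10.17 (adjusted p = 7.1e-09). Rps18, in the head of the small subunit, and Rps23 were lowest there in 9 as well. Rpl29 was highest at place 1 in 10 of 10 groups (medians 11.47, 11.26, 11.19 and 11.33, adjusted p = 6.5e-09), and all 7 of its probe sets differed.

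Genes with higher inner places were Rpl5, which carries a ribosomal RNA into the large subunit and can bind Mdm2, and Rps6, the substrate of the S6 kinases. Rpl5 had medians of 11.31, 11.54, 11.48 and 11.24 with both inner places above both outer ones in 8 of 10 groups (adjusted p = 4.4e-05). Rps6 had medians of 11.06, 11.19, 11.15 and 11.06, in 9 of 10 groups (adjusted p = 0.00011). Rpl11, the partner of Rpl5, had medians of 10.95, 10.91, 10.87 and 10.80 and was lowest at place 4 in 7 of 10 (adjusted p = 0.0063). Rplp0, which anchors the stalk, was highest at place 4 in 7 groups and Rplp2 at place 1 in 7. Of the 33 genes, 13 were highest on average at place 1, 8 at place 2, 5 at place 3 and 7 at place 4, and 17 were lowest at place 4. The gap between highest and lowest place had a median of 0.150 log2 in the 33 and reached 0.809 for Rpl36a.

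**Figure D4:**
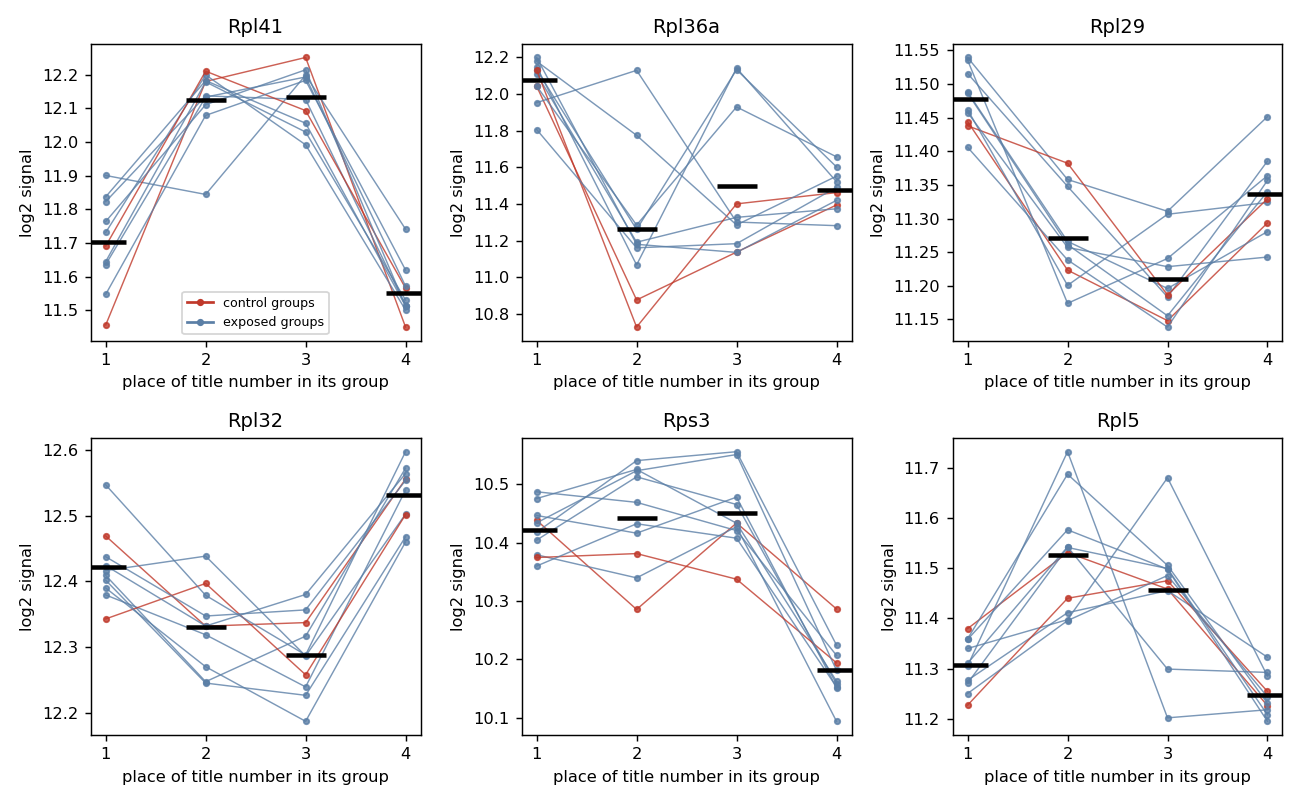
Log2 signal (vertical axes) of 6 genes at places 1 to 4 of the sample number in its group (horizontal axes), 1 line per group, red for the 2 control groups and blue for the 8 exposed groups, with black bars for the mean of the 10 arrays. Rpl41 and Rpl5 are higher at the inner places, Rpl29 and Rpl36a at place 1 and Rpl32 at place 4, and Rps3 is lowest at place 4.

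The place pattern did not rest on 1 group: leaving out each group in turn gave 26 to 31 genes called, against 2395 to 3222 of all 29214 probe sets. In the 20 arrays labelled male 30 genes had an unadjusted p under 0.05, against 4392 of all 29214 probe sets, and 4 were called, against 0.794%. In the 20 labelled female it was 27, against 12.3%, with 10 called, against 1.46%. In the 12 arrays numbered 1970 to 1981 it was 20 genes, against 9.82% (2 called, against 0.0753%), and in the 24 numbered 2821 to 2876 it was 34, against 13.8% (11 called, against 2.33%). In the 8 controls alone 23 genes had an unadjusted p under 0.05, against 8.83% of all probe sets, and none was called, as of all probe sets (0%). Exposed arrays alone gave 27 called, against 6.89%.

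Neuronal markers had mean levels of 12.05, 12.06, 12.07 and 12.05 at places 1 to 4, astrocyte markers 11.11, 11.15, 11.15 and 11.16, and microglia markers 8.51, 8.56, 8.57 and 8.60. Choroid plexus markers were at 8.54, 9.10, 9.12 and 8.97, with single arrays at place 1 from 6.47 to 10.63. Hippocampal markers were at 10.48, 10.45, 10.45 and 10.48, and oligodendrocyte markers at 11.77, 11.78, 11.74 and 11.74. Endothelial markers were at 8.14, 8.21, 8.17 and 8.21, and red blood cell markers at 9.73, 9.54, 9.65 and 9.57. The part of cell content in the pattern was not tested. Since each place holds 1 array of each group, the difference between 2 group means does not change with place as a block, only its error. With that block the genes at an unadjusted p under 0.05 were 14, against 8 without it, in males exposed perinatally to 750 ppm. Over all probe sets the counts were 2742 and 2270. In females at 750 ppm they were 11 against 5 perinatally (2035 and 1698 probe sets) and 3 against 0 postnatally (1257 and 1047).

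**Figure D5:**
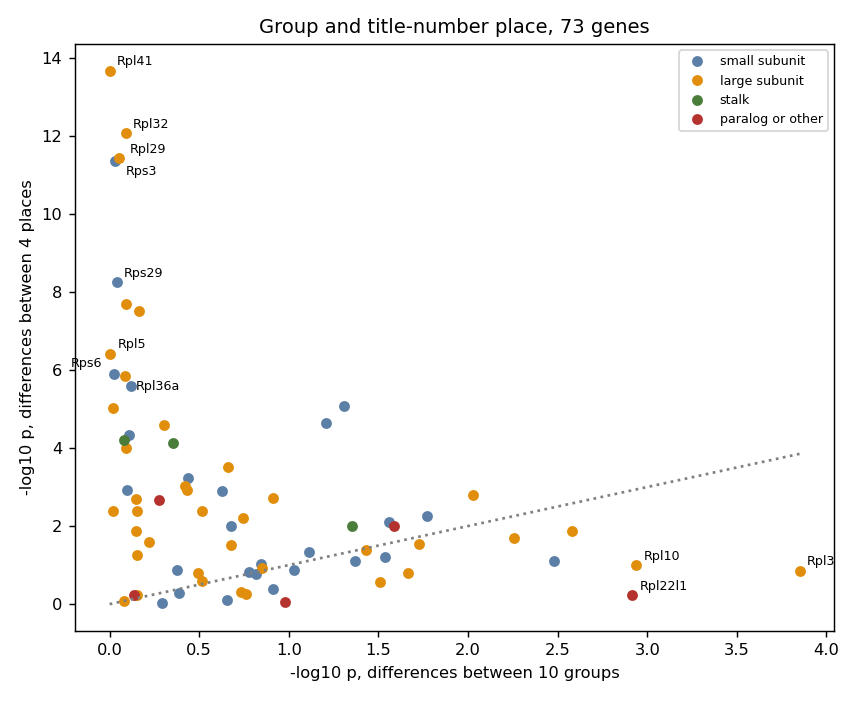
Minus log10 of the unadjusted p for differences between the 10 groups (horizontal axis) and between the 4 places of the sample number (vertical axis), 1 point per ribosomal protein gene, coloured by subunit, with a dotted line at equal p. Most genes, 51 of 73, lie above the line, with Rpl41, Rpl32, Rpl29 and Rps3 at the top and Rpl3 farthest to the right (Rpl41 and Rpl36a, where the pattern was first seen, are drawn as a description).

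Among other genes of translation no gene was called in the exposure, dose and window comparisons, and the F test over the 10 groups called Eif2s3 (adjusted p = 0.00010), the X-linked gene used to check the sex labels, and Nemf (adjusted p = 0.0467). In 7 lists (8 elongation, 25 initiation, 8 other TOP, 27 ribosome biogenesis, 13 mTOR signalling, 9 ribosome quality control and 68 mitochondrial ribosome genes measured) none passed in the 8 exposure, 4 dose and 4 window comparisons. In males at 750 ppm, postnatal against perinatal, the medians were 0.06 for elongation (8 of 8 higher), 0.05 for initiation (20 of 25), 0.08 for other TOP mRNAs (7 of 8), 0.03 for biogenesis (17 of 27), 0.02 for quality control (6 of 9), 0.05 for the mitochondrial ribosome (50 of 68) and -0.016 for mTOR signalling (6 of 13), beside -0.029 over all probe sets. The nearest to a call was Eif3c, an initiation factor subunit, in females exposed perinatally to 750 ppm. It read 10.41 ± 0.04 against 10.18 ± 0.01 (SD, n = 4), without overlap, a difference of 0.24 (SE 0.05, adjusted p = 0.0503). Ddit4, a stress-induced inhibitor of mTOR, was at 9.28 ± 0.22 against 8.94 ± 0.11 there (0.34, adjusted p = 0.124).

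For the other lists the smallest p lay in other comparisons with controls. Eef1b2, an exchange factor of elongation, differed by -0.28 (adjusted p = 0.616) and Hnrnpa1, a TOP mRNA, by 0.15 (adjusted p = 1), in females at 250 ppm perinatally and postnatally. In males Ltv1, of small subunit assembly, differed by -0.25 (adjusted p = 0.421) and the mitochondrial Mrps33 by -0.43 (adjusted p = 0.229) at 250 ppm perinatally, and Nemf, of quality control, by 0.35 (adjusted p = 0.287) at 250 ppm postnatally. By place the calls were 3 of 8 elongation, 9 of 25 initiation, 4 of 8 other TOP, 6 of 27 biogenesis, 4 of 13 mTOR, 2 of 9 quality control and 13 of 68 mitochondrial ribosome genes, against 11.4% of all probe sets and 21.8% with the dimmest 40% left out. The shares of biogenesis (22.2%), quality control (22.2%) and mitochondrial ribosome genes (19.1%) were near the latter. The smallest p by place was that of Mrpl34 (adjusted p = 2.4e-07), followed by Eif3h and Rack1.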

How the data were processed

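RNA of each sample (100 ng) was hybridised to an Affymetrix rat array. The deposited values are log2 signals made by the authors with RMA (RMA and Partek, per the submitters' processing notes, settings not given in the sources used here). They were used as deposited. A limma model (limma 3.58.1, R 4.3.3) with a mean per group was fitted to all 40 arrays and 29214 probe sets, with a variance trend. It gave 20 contrasts with two-sided p-values adjusted by Benjamini-Hochberg over all probe sets within a contrast, called at an adjusted p under 0.05, and an F test over groups. Scripts were tested on simulated data.

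Of 15310 probe sets with 1 gene symbol, 261 belonged to the 73 genes. Named were up to 8 called genes per direction, else the 3 of smallest p per exposure, the 6 of smallest F test p, the 4 extremes of mean and SD, 32 fixed genes (23 measured here) and the gene of smallest p per other list. Names outside this rule were picked with values in view. The genes and lists were chosen with earlier results of these data known. Alternatives were filtering, normalization, array weights, no trend, leaving out arrays and pooled controls. The test of place was added after seeing the data. Promoters came from RefSeq (GRCr8). Figures used matplotlib 3.10.9.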

Additional observations from a re-analysis of the deposited data

Results flagged for a closer look

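Of 120 sets of 4 arrays checked, 3 held an array that stood apart from the other 3, by a gap above Dixon's 95% critical value, which chance passes in about 1 set in 20. Rpl10 read 11.5531 in female 750 ppm postnatal replicate 4, and the nearest array read 11.4915. Rpl29 read 11.4576 in female 750 ppm perinatal replicate 1, which is place 1 of its group, and the nearest 11.2571. Rpl38 read 10.6853 in male 750 ppm postnatal replicate 2, and the nearest 10.7622.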

How the results depend on the processing

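Among males at 750 ppm, postnatal against perinatal, the count of called genes was 0 after further quantile normalization, after cyclic loess, without the variance trend, without the 3 flattened arrays and in a fit of the 2 groups only. It was 2 with the dimmest 40% of probe sets left out and with array weights, and 3 with place as a block, against 1 as reported. Leaving out single arrays gave 0 to 4 (4 without perinatal replicate 2). For the F test over groups the count was 0 after quantile normalization, after cyclic loess, without the variance trend, without the flattened arrays and without the mismatched controls, and 2 with array weights and with place as a block, against 1. In females exposed perinatally to 750 ppm it was 1 with place as a block, against 0. The median of males at 250 ppm, postnatal against perinatal, was -0.0034 without the flattened arrays. The place count was 4 in arrays labelled male, 10 in those labelled female, 2 and 11 in the lower ranges of sample numbers and 0 in controls, all with fewer arrays, against 33. Of the values for summary results under other settings, 677 kept their direction and side of the threshold, or their size, 22 were weaker, 7 stronger and 1 moved. The cause of these changes was not tested. The labels give no replicate numbers, and the place of the title number, whose meaning they do not give, was the only block tried.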
